A study of Mus musculus with 8 samples.

Results

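The 10 genes that carry dietary fatty acids into the enterocyte and prepare them for use there were followed in the jejunal mucosa of mice lacking the short-chain fatty acid receptor FFA2 in adipocytes. They were Cd36, Slc27a2, Slc27a4 and Got2 for uptake, Fabp1, Fabp2 and Dbi for binding, and Acsl1, Acsl3 and Acsl5 for activation. The 10 genes were matched by mouse gene symbol among 56980 Ensembl gene identifiers in the deposited read counts, and all 10 passed the filter on low counts that left 15986 genes for testing. They were chosen because the study reports lower fatty acid absorption in the knockout, so the question is whether transcripts of the absorptive machinery differed between genotypes. The groups were 4 male FFA2 fl/fl mice, which carry the floxed Ffar2 gene without Cre, and 4 male Adipoq-F2-KO littermates, in which Cre under the Adiponectin promoter removes Ffar2 in adipocytes. This promoter is active in adipocytes and not in the gut epithelium, so Ffar2 was not targeted in the enterocytes of either group. All 8 mice ate chow to 12 weeks of age, then a Western diet containing 10% fructooligosaccharides (FOS, a fermentable fibre) for 2 weeks in thermoneutral housing. One library of polyadenylated RNA was made from each scraping of jejunal mucosa.

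Long-chain fatty acids released from dietary fat cross the brush border by diffusion and with the help of membrane proteins. CD36 binds fatty acids at the surface, the fatty acid transport proteins FATP4 (Slc27a4) and FATP2 (Slc27a2) couple entry to formation of the coenzyme A thioester, and a plasma membrane form of the mitochondrial aspartate aminotransferase Got2 was described as a fatty acid binding protein. Inside the cell the liver-type (Fabp1) and intestinal-type (Fabp2) fatty acid binding proteins carry the free acid. Long-chain acyl-CoA synthetases (ACSL) activate it, and the acyl-CoA binding protein encoded by Dbi carries the thioester. The acyl-CoA is then esterified to triglyceride for chylomicrons or oxidized.

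Total counts ranged from 6007654 to 21712776 per library. FFA2 fl/fl replicate 3 and Adipoq-F2-KO replicates 3 and 4 each held fewer than 10000000 counts and are called shallow. The other 5 are called deep. The 3 shallow libraries also differed in content. Fabp6, the ileal bile acid binding protein, reached 523, 140 and 942 normalized counts in them and 0.77 to 3.95 in the deep libraries. Slc10a2, the ileal bile acid transporter, lay at 268 to 415 against 30.0 to 78.2. The other genes of the distal small intestine list are the bile acid transporter subunits Slc51b, at 989 to 1763 against 594 to 839, and Slc51a, which overlapped at 2737 to 3561 against 2451 to 3212. The summed normalized count of 6 adipocyte markers was 531, 226 and 203 in the shallow libraries against 24 to 48 in the deep ones. That of 8 endothelium markers was 305, 296 and 391 against 39.5 to 245. FFA2 fl/fl replicate 3 further held 31949 summed normalized counts of 11 smooth muscle markers, against 3791 to 12989 in the other 7 libraries. All 11 smooth muscle markers had a lower fitted level in Adipoq-F2-KO, with a median log2 fold change of -0.92 and 0 past an unadjusted p below 0.05. The 12 villus enterocyte markers ranged in sum from 594226 to 663107. Of these 12, 9 had a log2 fold change below 0 and 3 above, with a median of -0.0425 and 0 past an unadjusted p below 0.05. The 14 proliferation markers were all higher in Adipoq-F2-KO, with a median log2 fold change of 0.28 and 4 past an unadjusted p below 0.05, and their summed normalized count was 1735 to 2072 in FFA2 fl/fl and 2151 to 2495 in Adipoq-F2-KO. The 9 tested of 10 macrophage markers were also all higher, with a median of 0.61 and 1 past that threshold, and sums of 186 to 599 and 405 to 775 that overlapped. Over all tested genes 1.65% were higher and 1.38% lower at that threshold, and 2.12% did not overlap between genotypes. With a score of the smooth muscle markers as a term of the model, the median log2 fold change of the 10 members was 0.082, against 0.018 without it. Over all tested genes these medians were 0.0071 and -0.0067. The part of the listed transcripts in the differences below was not otherwise tested. Ffar2 itself had 2 to 18 raw counts per library, with 4.18 to 9.49 normalized counts in FFA2 fl/fl and 5.64 to 12.0 in Adipoq-F2-KO, a level that does not check the deletion, which is in adipocytes.

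The fatty acid binding proteins stood far above the other members. Levels between genes are given as TPM, the count divided by gene length and scaled to the same total in every library. Fabp1 averaged 15703 TPM and Fabp2 15069 TPM over the 8 libraries, and Fabp1 was the higher of the pair in 4 of 8, so their order was not settled. Acsl5 followed at 1489 TPM, below Fabp2 by a ratio of 10.1. Slc27a4 stood at 886 TPM and Dbi at 635 TPM, in that order in 6 of 8 libraries. Below them were Slc27a2 (209 TPM), Cd36 (108 TPM), Acsl3 (52.2 TPM), Acsl1 (28.4 TPM) and Got2 (13.7 TPM). Acsl3 exceeded Acsl1 in 7 of 8 libraries, and every other neighbouring pair kept its order in all 8. The length used mattered for 2 steps of this order. With the longest coding transcript in place of all annotated exons, Dbi rose to 1283 TPM, above Slc27a4 at 776 and below Acsl5 in only 4 of 8 libraries, and Acsl1 rose to 61.7 TPM, above Acsl3 at 46.5. Together the 10 genes took 1.08% to 1.29% of all counts in each library.

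**Figure D1:**
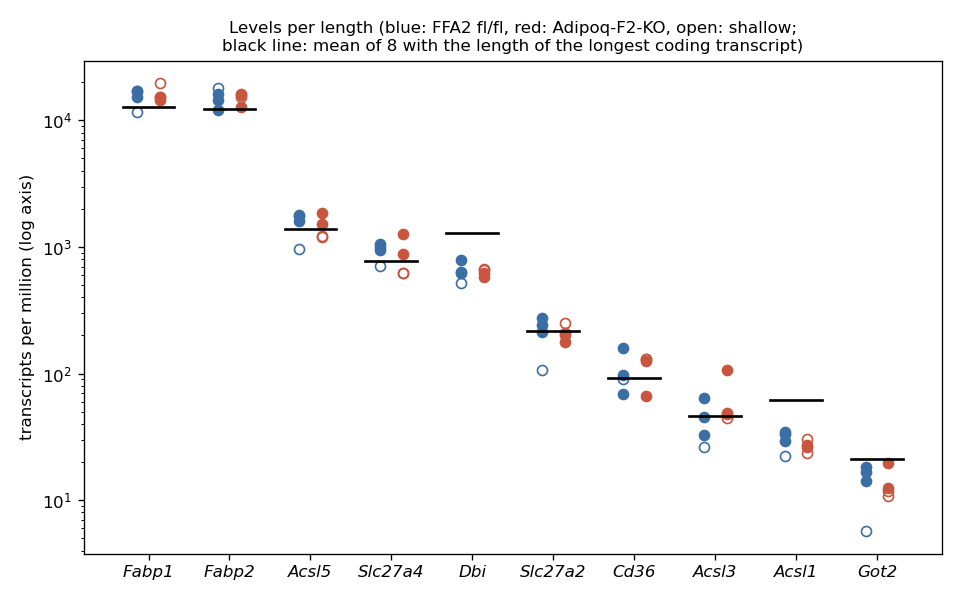
Level of the 10 genes in TPM on a log axis, 1 point per library, blue for FFA2 fl/fl and red for Adipoq-F2-KO, with open points for shallow libraries. Black lines mark the mean of the 8 libraries when length is that of the longest coding transcript; the means of Fabp1 and Fabp2 lie at 12196 or above on either length, and Dbi and Acsl1 move up with the coding length.

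The start-site sequences of the 2 binding proteins and of Acsl3 are shown because the first pair are the most abundant members and Acsl3 had the largest difference between genotypes. Each run is read 5′ to 3′ on the gene's strand from the RefSeq promoter table (GRCm38.p6) and ends before the gene's first annotated base in GENCODE. For Fabp2 and Acsl3 this is also the RefSeq start. The RefSeq start of Fabp1 lies further in, at 71199879, so the last part of the window searched for Fabp1 is not shown. Capitals mark a match, with at most 1 mismatch, to a direct repeat of the hexamer AGGTCA with 1 base between the copies (AGGTCANAGGTCA or, on the other strand, TGACCTNTGACCT), the DR1 element read by PPAR and HNF4 receptors.
Fabp1, chr6:71199629-71199826, + strand: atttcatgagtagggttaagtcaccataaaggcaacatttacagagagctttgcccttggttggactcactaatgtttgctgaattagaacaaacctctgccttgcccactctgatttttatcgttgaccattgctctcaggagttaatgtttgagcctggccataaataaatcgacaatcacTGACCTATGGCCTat
Fabp2, chr3:122894822-122895071, + strand: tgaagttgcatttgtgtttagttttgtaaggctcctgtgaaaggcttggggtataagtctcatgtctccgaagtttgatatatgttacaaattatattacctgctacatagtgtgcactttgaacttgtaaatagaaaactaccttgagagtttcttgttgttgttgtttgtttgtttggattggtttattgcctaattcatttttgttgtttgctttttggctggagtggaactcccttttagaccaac
Acsl3, chr1:78657575-78657824, + strand: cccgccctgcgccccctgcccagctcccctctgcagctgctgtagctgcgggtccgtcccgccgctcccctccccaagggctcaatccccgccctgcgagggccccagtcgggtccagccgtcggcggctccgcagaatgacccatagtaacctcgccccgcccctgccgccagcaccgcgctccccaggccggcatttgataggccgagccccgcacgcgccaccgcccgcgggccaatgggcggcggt

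The Fabp1 match lies at chr6:71199812-71199824 and differs from TGACCTNTGACCT by A10G, counted from 1 at its 5′ end. Among the 250 bases before the RefSeq start, 1 of the 10 members held such a match, against 0.484% of all promoter windows of that length. The single hexamer (AGGTCA or TGACCT) was found in 4 members (Fabp1, Cd36, Slc27a2 and Got2), and 4607 of all 32851 windows held it. Fabp1 held 2 hexamers, 1 inside the DR1 match and 1 in the part not shown. The HNF4 core CAAAGTCCA, on either strand, was in none of the 12 windows of the members and in 0.384% of all windows. The windows also differed in base composition: G and C made up 35.6% of the Fabp2 window, 42.8% of the Fabp1 window and 75.6% of the Acsl3 window, with a median of 52.4% over all windows.

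No member differed between genotypes past the multiple testing threshold. All 10 had an adjusted p of 0.9998 (DESeq2, Benjamini-Hochberg over all tested genes), where 0.0375% of the 15986 genes were called. In no member did the 4 libraries of one genotype lie clear of the 4 of the other, which 2.12% of all genes did. At an unadjusted p below 0.05, 1 member, Acsl3, was higher in Adipoq-F2-KO (background 1.65%) and 0 were lower (background 1.38%). edgeR and limma called 0 members at either threshold. The fold changes, Adipoq-F2-KO over FFA2 fl/fl, lay above 0 on the log2 scale for 7 members and below 0 for 3, with a median of 0.018 against -0.0067 over all tested genes. With size factors taken from epithelium markers this split became 3 against 7, the directions of Slc27a2, Got2, Fabp2 and Dbi turning. With those size factors the median was -0.048 over the members and -0.086 over all tested genes. In the deep libraries alone the split became 2 against 8, with a median of -0.15 over the members and -0.0031 over all genes. Without FFA2 fl/fl replicate 3 these medians were -0.076 and 0.0082. In the fit over all 8 libraries the lowest bound of the 95% intervals among the 10 was 0.701 of the control level, for Got2. On the log2 scale this was -0.51, and the lowest bound moved with the setting. It was -0.47 (Cd36) with the depth class as a term and -0.69 (Got2) without Adipoq-F2-KO replicate 2. Without FFA2 fl/fl replicate 3 and with the smooth muscle score as a term it was -0.79 (Cd36). In the deep libraries alone it reached -1.28, for Cd36.

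**Figure D2:**
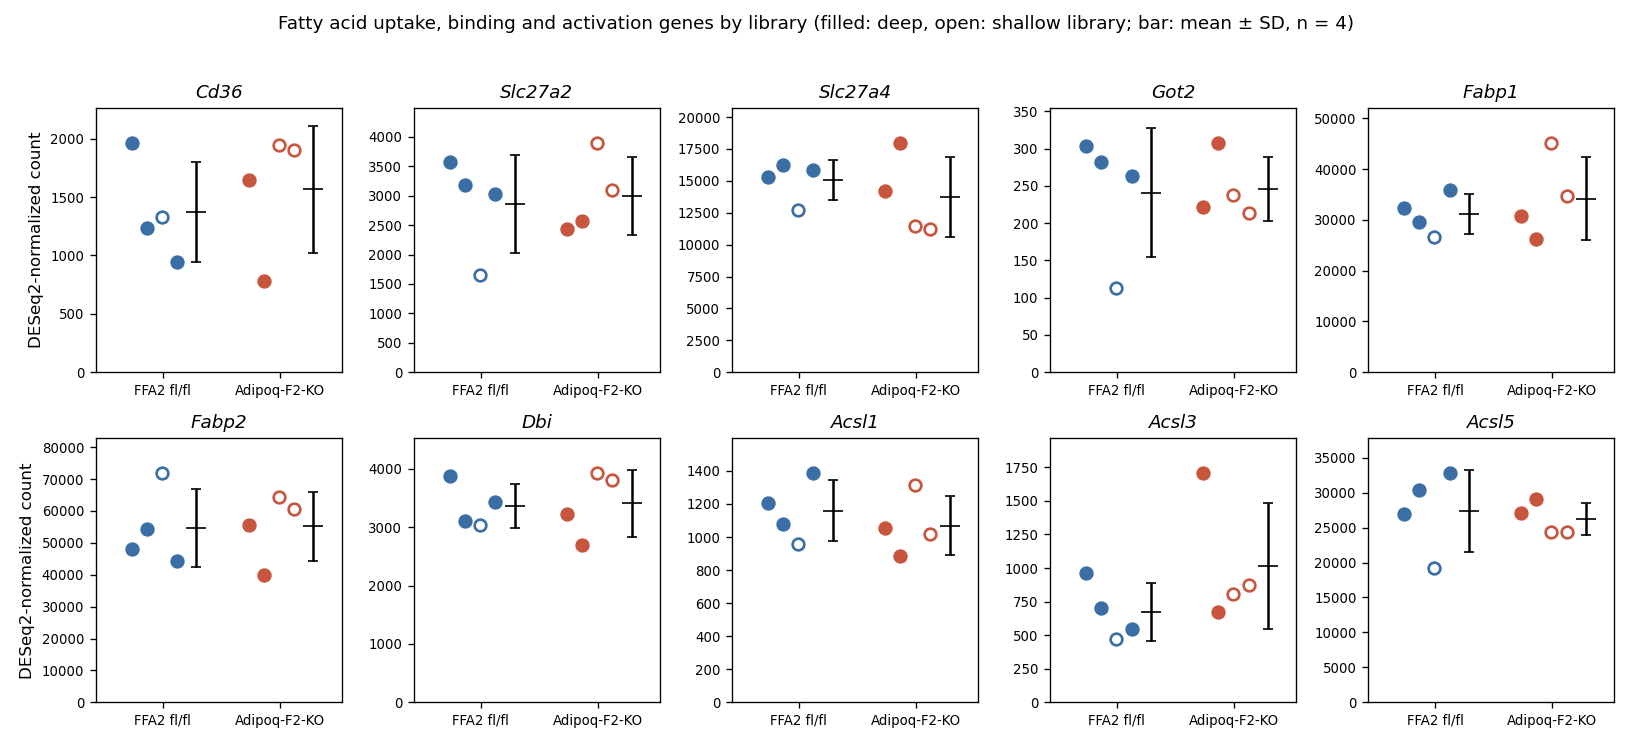
DESeq2-normalized count of each gene in each library, 1 panel per gene with its axis from 0, filled points for deep and open points for shallow libraries, with the mean and SD of the 4 libraries of a genotype at its right. The genotypes overlap in all 10 panels, and Acsl3 in Adipoq-F2-KO replicate 1 stands highest in its panel at 1710.

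Among the uptake genes, Cd36 (ENSMUSG00000002944, chr5:17781690-17888801, - strand) varied more between mice than between genotypes. Its normalized counts were 1966, 1239, 1330 and 945 in FFA2 fl/fl and 1644, 778, 1946 and 1904 in Adipoq-F2-KO. The lowest and the second highest value were both knockout libraries, and the highest was a control. The log2 fold change was 0.19 (SE 0.29, 95% interval -0.37 to 0.76), and it was above 0 in 17 of 18 alternative settings, the exception being the deep libraries alone (-0.20). Leaving out single libraries moved it from 0.052, without FFA2 fl/fl replicate 4, to 0.42, without FFA2 fl/fl replicate 1.

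Slc27a4 (ENSMUSG00000059316, chr2:29802634-29817522, + strand), the main FATP of enterocytes, had 15334, 16266, 12744 and 15884 normalized counts in FFA2 fl/fl. The Adipoq-F2-KO libraries had 14238, 18001, 11472 and 11243. The 3 shallow libraries were the 3 lowest, whichever their genotype. The log2 fold change was -0.13 (SE 0.17, 95% interval -0.46 to 0.19). It was -0.042 with the depth class as a term of the model and -0.049 without Adipoq-F2-KO replicate 4. Without Adipoq-F2-KO replicate 2 it was -0.29, the only setting of 18 that passed the unadjusted threshold (DESeq2 unadjusted p = 0.031, adjusted p = 0.9998).

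Slc27a2 (ENSMUSG00000027359, chr2:126552407-126588243, + strand), which is known for activating very long-chain fatty acids as well as for transport, had 3577, 3181, 1658 and 3037 normalized counts in FFA2 fl/fl and 2427, 2563, 3902 and 3091 in Adipoq-F2-KO. The shallow libraries held both extremes, a control at 1658 and a knockout at 3902. Over all 8 libraries the log2 fold change was 0.063 (SE 0.23, 95% interval -0.39 to 0.52). In the 5 deep libraries both knockouts were below all 3 controls, where 23.6% of all genes did not overlap between genotypes. The log2 fold change there was -0.39 (SE 0.12, DESeq2 unadjusted p = 0.0016, adjusted p = 0.155). An antisense noncoding gene, Gm26697, covers 11.2% of the exon bases of Slc27a2.

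Got2 (ENSMUSG00000031672, chr8:95864134-95888547, - strand) was the scarcest member, with 2442 reads over the 8 libraries. Its normalized counts were 304, 282, 113 and 264 in FFA2 fl/fl and 222, 308, 238 and 214 in Adipoq-F2-KO. FFA2 fl/fl replicate 3 stood apart at the bottom, and without it the controls lay between 264 and 304. The log2 fold change was 0.019 (SE 0.27, 95% interval -0.51 to 0.55) with that library and -0.19 without it (DESeq2 adjusted p = 0.772). Of the 75-base stretches in its transcripts, 19.3% also occur in other genes, among them the pseudogene Got2-ps1, so part of its count is uncertain.

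**Figure D3:**
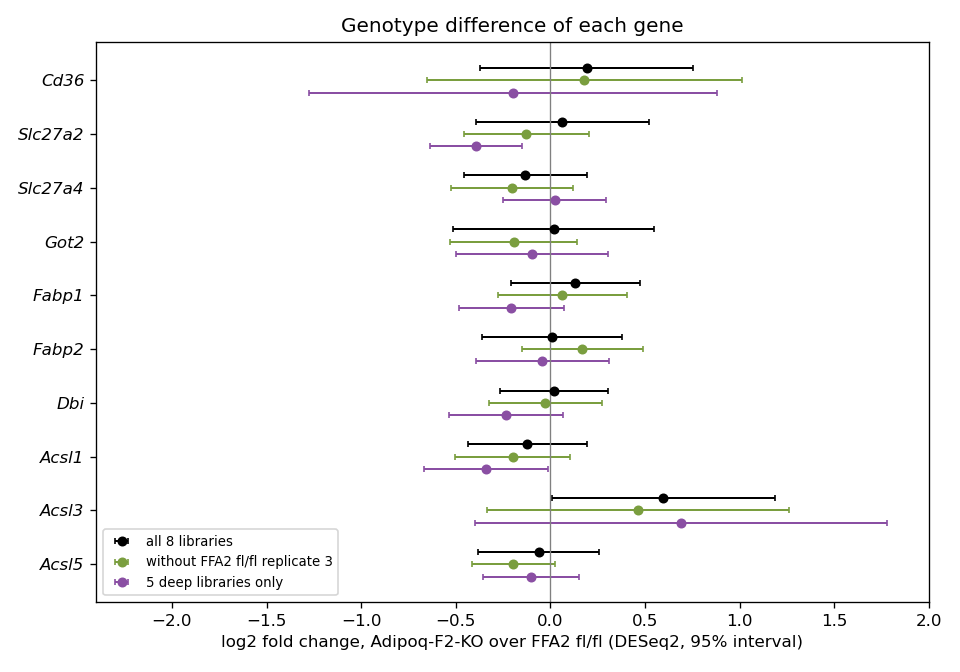
Log2 fold change of each gene, Adipoq-F2-KO over FFA2 fl/fl, with its 95% interval from DESeq2, over all 8 libraries (black), without FFA2 fl/fl replicate 3 (green) and in the 5 deep libraries (purple). Acsl3 is the only gene whose black interval leaves out 0, and Slc27a2 and Acsl1 are those whose purple interval does.

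None of the binding proteins passed the test. Fabp1 (ENSMUSG00000054422, chr6:71199827-71205023, + strand) had 32414, 29655, 26660 and 35935 normalized counts in FFA2 fl/fl and 30667, 26164, 45198 and 34594 in Adipoq-F2-KO. A knockout library was the highest and another the lowest. The log2 fold change was 0.13 (SE 0.17, 95% interval -0.21 to 0.47) over 8 libraries and -0.21 in the deep ones.

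Fabp2 (ENSMUSG00000023057, chr3:122895072-122899506, + strand) had 48168, 54445, 71972 and 44357 normalized counts in FFA2 fl/fl and 55438, 40025, 64350 and 60665 in Adipoq-F2-KO. The 3 shallow libraries were its 3 highest, from 60665 to 71972, against 40025 to 55438 in the deep ones. Between genotypes the means differed little, 54736 ± 12220 (SD, n = 4) and 55120 ± 10707 (SD, n = 4), and the log2 fold change was 0.010 (SE 0.19, 95% interval -0.36 to 0.38).

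Dbi (ENSMUSG00000026385, chr1:120113280-120121078, - strand) was the steadiest of the 10, its highest and lowest library 0.55 apart on the log2 scale. Its normalized counts were 3875, 3110, 3043 and 3423 in FFA2 fl/fl and 3218, 2690, 3932 and 3803 in Adipoq-F2-KO. On the log2 scale the fold change was 0.018 (SE 0.15, 95% interval -0.27 to 0.30).

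Of the 3 synthetases, Acsl5 (ENSMUSG00000024981, chr19:55251938-55297720, + strand) is the form most abundant in small intestine. It had 26956, 30424, 19274 and 32841 normalized counts in FFA2 fl/fl and 27142, 29037, 24376 and 24422 in Adipoq-F2-KO. As with Slc27a4, the 3 shallow libraries were the 3 lowest. On the log2 scale the fold change was -0.061 (SE 0.16, 95% interval -0.38 to 0.26), and it was 0.055 with the depth class as a term.

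Acsl1 (ENSMUSG00000018796, chr8:46471037-46536051, + strand), a broadly expressed synthetase of liver, fat and muscle, had 1206, 1078, 960 and 1389 normalized counts in FFA2 fl/fl and 1052, 888, 1317 and 1019 in Adipoq-F2-KO. The genotypes overlapped throughout this range. Between genotypes the log2 fold change was -0.12 (SE 0.16, 95% interval -0.44 to 0.19). It was below 0 in all 18 alternative settings, from -0.022, without FFA2 fl/fl replicate 4, to -0.34. In 1 of them, the deep libraries alone, it passed the unadjusted threshold at -0.34 (DESeq2 unadjusted p = 0.041, adjusted p = 0.742).

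Acsl3 (ENSMUSG00000032883, chr1:78657825-78707743, + strand), a synthetase of the endoplasmic reticulum and lipid droplets, had the largest difference. Its normalized counts were 964, 700, 473 and 549 in FFA2 fl/fl and 1710, 676, 809 and 874 in Adipoq-F2-KO. Of the 4 knockout libraries 3 lay inside the control range, and replicate 1 lay far above it. The log2 fold change was 0.60 (SE 0.30, 95% interval 0.010 to 1.19, DESeq2 unadjusted p = 0.046, adjusted p = 0.9998). Without Adipoq-F2-KO replicate 1 it fell to 0.22 (unadjusted p = 0.357 in DESeq2). It was above 0 in all 18 alternative settings and passed an unadjusted p below 0.05 in 10 of them.

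Acsl3 overlaps a neighbouring gene. Utp14b, a retrogene for a ribosomal RNA processing factor, lies inside the Acsl3 locus on the same strand and shares 244 exon bases with it, 5.6% of the Acsl3 exons. Its normalized counts were 1763, 1162, 782 and 929 in FFA2 fl/fl and 2938, 909, 1077 and 1000 in Adipoq-F2-KO. Adipoq-F2-KO replicate 1 was the highest library and FFA2 fl/fl replicate 3 the lowest for both genes. The ratio of Utp14b to Acsl3 was 1.83, 1.66, 1.65 and 1.69 in FFA2 fl/fl and 1.72, 1.34, 1.33 and 1.14 in Adipoq-F2-KO, so 3 of the 4 knockout libraries lay below every control and replicate 1 lay among the controls. Utp14b had a log2 fold change of 0.35 (SE 0.48, DESeq2 adjusted p = 0.9998). The part of reads from one transcript in the count of the other was not tested.

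Within each family the leading form was the same in every library of both genotypes for the synthetases and the transport proteins. Acsl5 made up 91.7% to 96.2% of the summed TPM of the 5 ACSL genes. Acsl3 made up 3.76%, 2.46%, 2.59% and 1.79% in FFA2 fl/fl and 6.45%, 2.49%, 3.48% and 3.76% in Adipoq-F2-KO. The ranges overlapped. Slc27a4 made up 71.0% to 86.2% and Slc27a2 13.2% to 28.4% of the 6 FATP genes. The Slc27a2 share was lowest in a shallow control and highest in a shallow knockout. Fabp1 made up 38.9% to 58.6% of the 7 FABP genes numbered 1 to 7, and Fabp2 41.4% to 60.2%, so neither led throughout.

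The depth class separated 3 members, where genotype separated 0. Slc27a4 and Acsl5 were lower in all 3 shallow libraries than in all 5 deep ones, their means 0.741 and 0.775 of the deep mean. Fabp2 was higher in all 3, at 1.35 of the deep mean. These 3 of 10 members stand beside 13.9% of all tested genes that separated in this way. Since the shallow libraries hold 1 control and 2 knockouts, they are too few for a comparison among themselves. Adding the depth class to the model turned Fabp2, Dbi and Acsl5 in direction, with fold changes of -0.097, -0.032 and 0.055 on the log2 scale, and left Acsl3 at 0.74 (DESeq2 unadjusted p = 0.0053, adjusted p = 0.9999). In the deep libraries alone 2 members, Slc27a2 and Acsl1, lay lower in both knockouts than in all 3 controls, where 23.6% of all genes did not overlap. The same 2 passed an unadjusted p below 0.05 there (background 2.85%), 0 members were higher at that threshold (background 2.56%) and 0 passed the adjusted one (background 0.482%). Fabp6, Slc10a2 and Slc51b and the summed adipocyte and endothelium markers given above move with the shallow libraries. Of the single endothelium markers, Pecam1 and Vwf were higher in every shallow library than in every deep one. Cdh5, Kdr, Plvap, Tie1 and Emcn overlapped, since the deep FFA2 fl/fl replicate 2 exceeded a shallow library in each. For Plvap it held 59.6 normalized counts, against 39.7 in the shallow FFA2 fl/fl replicate 3. Cldn5 had 5 counts in all. Smooth muscle transcripts do not separate the depth classes, since Adipoq-F2-KO replicate 3, at 6261 summed normalized counts, lay below 2 deep libraries. The part of these transcripts in the differences by depth was not tested. In a scraping of mixed cells, fewer cells of a type and less RNA per cell cannot be told apart.

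**Figure D4:**
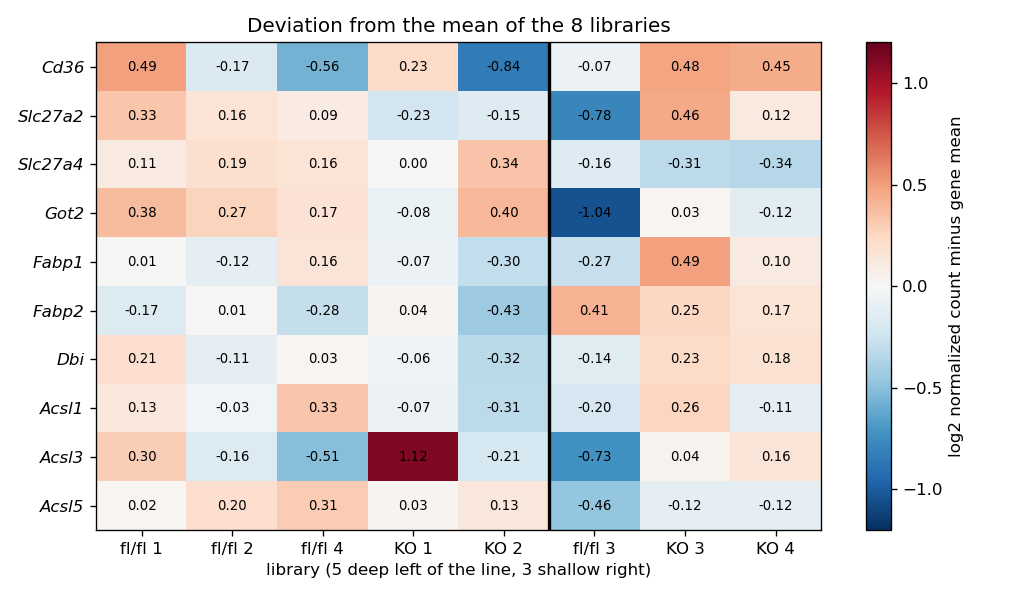
Log2 normalized count of each gene minus its mean over the 8 libraries, with the 5 deep libraries left of the line and the 3 shallow ones right of it (KO, Adipoq-F2-KO; fl/fl, FFA2 fl/fl). Acsl3 in Adipoq-F2-KO replicate 1 reaches 1.12 and Got2 in FFA2 fl/fl replicate 3 reaches -1.04, the largest deviations of the 10 genes.

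Of 62 other genes of the pathway 44 were tested, and 0 passed an adjusted or unadjusted p below 0.05 in DESeq2 over the 8 libraries (backgrounds 0.0375%, 1.65% and 1.38%). edgeR also called 0, while limma gave 1 higher (Acsl4) and 1 lower (Acot1) at an unadjusted p below 0.05, where it called 2.16% and 2.14% of all genes. Fold changes were below 0 for 32 genes and above 0 for 12, with a median of -0.0995 against -0.0067 over all genes. Among the 4 other FATP genes 2 were tested, both below 0, and the most abundant, Slc27a1, averaged 3.49 TPM, with a log2 fold change of -0.19 (SE 0.27). Among the 7 other FABP genes 2 were tested, and Fabp6, the most abundant, was not, being near 0 in the deep libraries. Of the 15 further acyl-CoA synthetases 10 were tested, 4 above and 6 below 0, led by Acsf2, a mitochondrial medium-chain synthetase, at 0.016 (SE 0.21). Of the acyl-CoA binding genes 4 of 6 were tested, and Acbd4, a peroxisomal acyl-CoA binding protein, was at -0.18 (SE 0.14). The 9 partners of CD36 and other membrane proteins, 3 above and 6 below 0, were led by the lysophosphatidylcholine carrier Mfsd2a at -0.082 (SE 0.29), although with the coding transcript length Lypla1 stood above Mfsd2a, at 213.5 against 104 TPM. Mfsd2a was -0.65 in the deep libraries (DESeq2 unadjusted p = 0.0061, adjusted p = 0.318) and ranged from -0.31, without FFA2 fl/fl replicate 3, to 0.081, without Adipoq-F2-KO replicate 1, when single libraries were left out. The 5 malate-aspartate partners of Got2, 2 above and 3 below 0, were led by the cytosolic malate dehydrogenase Mdh1 at -0.033 (SE 0.11), although with the coding transcript length the mitochondrial Mdh2 stood above Mdh1, at 1068 against 554 TPM.

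The acyl-CoA thioesterases, which hydrolyse the thioester that the synthetases make, were mostly below 0. Of 12 tested genes 11 had a log2 fold change below 0, with a median of -0.21, beside 8233 of all 15986 tested genes below 0 and a median of -0.0067, and none passed the test over 8 libraries. Their most abundant gene, Acot12, was at -0.22 (SE 0.21). It was lower in every shallow library than in every deep one, at 1128 to 1320 against 1629 to 2178 normalized counts. The depth class separated 13.9% of all genes. Them4 was the only gene of the pathway whose genotypes did not overlap, at 283 ± 9.14 normalized counts in FFA2 fl/fl and 245 ± 27.4 in Adipoq-F2-KO (SD, n = 4), among a background of 2.12%. Its log2 fold change was -0.19 (DESeq2 unadjusted p = 0.134). Acot4, a peroxisomal thioesterase, had 368, 307, 184 and 362 normalized counts in FFA2 fl/fl and 189, 219, 272 and 271 in Adipoq-F2-KO. Acot1, its cytosolic neighbour, had 76.9, 48.5, 29.3 and 75.1 in FFA2 fl/fl and 19.7, 27.3, 62.1 and 35.7 in Adipoq-F2-KO. For both, the deep controls were above the deep knockouts and the shallow control was below both shallow knockouts. In the deep libraries 23.6% of all genes did not overlap between genotypes, in either direction. Over 8 libraries the log2 fold changes were -0.38 (SE 0.23) for Acot4 and -0.74 (SE 0.42) for Acot1, with adjusted p of 0.9998 in DESeq2. In the 5 deep libraries Acot4 fell by 0.76 and Acot1 by 1.50 on the log2 scale, with adjusted p of 0.0096 and 0.029 (DESeq2), among 0.482% of genes called there. With the depth class as a term they were -0.34 and -0.84, neither past the threshold. Acot1 had 449 reads in all and shares 581 of its 3878 distinct 75-base stretches with Acot2 and other genes, so its count is uncertain. Acot1, Acot4 and Them4 were singled out after their values were seen.

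**Figure D5:**
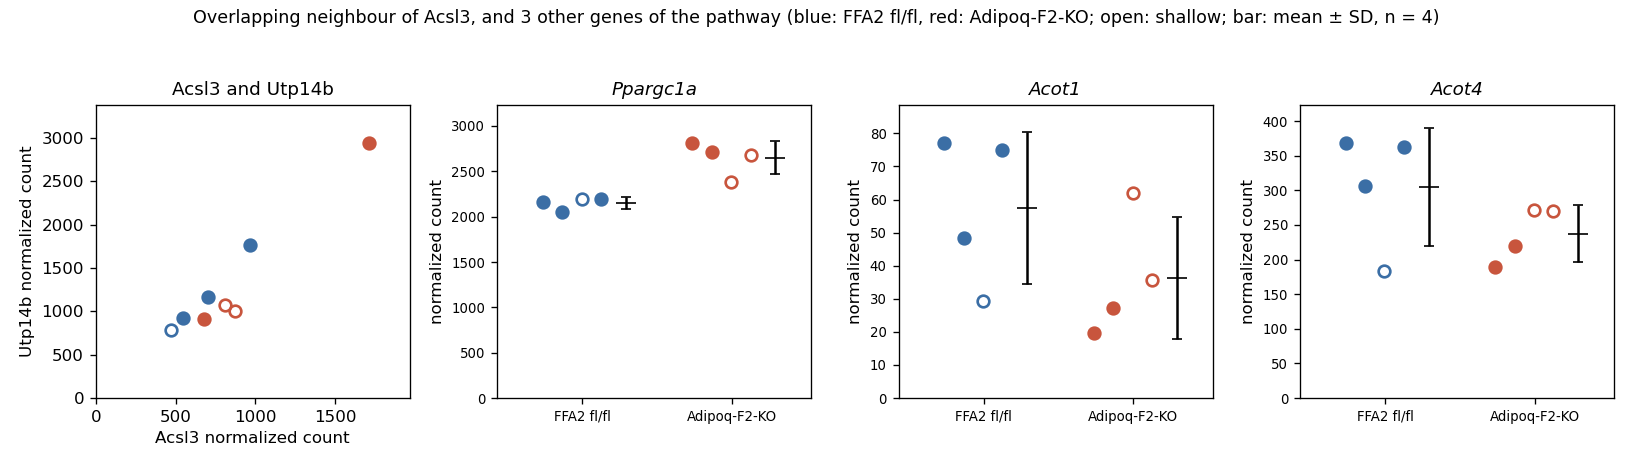
Normalized counts of Utp14b against Acsl3 in the 8 libraries, and of Ppargc1a, Acot1 and Acot4 by genotype with mean and SD (n = 4), blue for FFA2 fl/fl, red for Adipoq-F2-KO, open points for shallow libraries. Acsl3 and Utp14b are both highest in Adipoq-F2-KO replicate 1, and the 4 Adipoq-F2-KO values of Ppargc1a lie from 2385 to 2807, all above the FFA2 fl/fl values.

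Of 12 regulators of these genes, 2 were higher and 1 lower at an unadjusted p below 0.05 in DESeq2 and 0 passed the adjusted one (backgrounds 1.65%, 1.38% and 0.0375%). Ppargc1a, a coactivator of PPAR and HNF4 receptors, had 2158, 2049, 2192 and 2196 normalized counts in FFA2 fl/fl and 2807, 2715, 2385 and 2685 in Adipoq-F2-KO. Every knockout was above every control, as in 2.12% of all genes in either direction. Its log2 fold change was 0.30 (SE 0.083, DESeq2 unadjusted p = 2.5e-04, adjusted p = 0.232), from 0.23 to 0.37 over the 18 alternative settings, with adjusted p from 0.027, without Adipoq-F2-KO replicate 3, to 1.00. Hnf4g, an HNF4 receptor of the intestinal epithelium and the most abundant regulator at 992 TPM, had 10511, 7163, 9285 and 6023 normalized counts in FFA2 fl/fl and 15123, 10745, 8783 and 9786 in Adipoq-F2-KO, with overlap. Its log2 fold change was 0.43 (SE 0.21, DESeq2 unadjusted p = 0.042, adjusted p = 0.9998). Without Adipoq-F2-KO replicate 1 it was 0.25 and no longer passed the unadjusted threshold (DESeq2 unadjusted p = 0.211). That threshold was also missed without FFA2 fl/fl replicates 2 or 4 or Adipoq-F2-KO replicate 2. It was missed as well with edgeR (unadjusted p = 0.071) and limma (unadjusted p = 0.061). Nr1h3, the sterol receptor LXR alpha, was at 641 ± 52.9 and 528 ± 59.7 normalized counts (SD, n = 4). Its log2 fold change was -0.28 (SE 0.12, DESeq2 unadjusted p = 0.023, adjusted p = 0.9998), and it passed the unadjusted threshold only without FFA2 fl/fl replicate 3 or Adipoq-F2-KO replicate 2 when single libraries were left out. With size factors from epithelium markers, Ppargc1a, Hnf4g and Nr1h3 all missed the unadjusted threshold (DESeq2 unadjusted p = 0.116, 0.108 and 0.071). Ppara, the fatty acid sensing receptor that acts on Fabp1 and the synthetases, was at -0.18 (DESeq2 unadjusted p = 0.545).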

How the data were processed

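RNA from jejunal mucosa scrapings of 4 FFA2 fl/fl and 4 Adipoq-F2-KO mice was sequenced from one end over 75 bp after a stranded poly-A preparation. The authors trimmed reads with Trimmomatic, aligned them with STAR and counted them with featureCounts; the deposited values are raw counts per Ensembl gene, neither normalized nor pooled. Their processing notes name GRCm38 and mm10; versions, annotation release and strand setting are not given in the sources used here. Symbols, positions and lengths came from GENCODE M21 (GRCm38), in which 4855 of 56980 identifiers, with 0.71% of counts, had no entry. Genes reaching 10 counts in 4 or more libraries entered DESeq2 1.42.0 (R 4.3.3), the study's tool, on genotype alone, two-sided, with Benjamini-Hochberg adjustment; intervals are Wald intervals at 95%. Per the labels the mice were littermates housed together from birth, with no litter or cage given per sample, so p-values measure the spread between these samples. Alternatives were edgeR 4.0.16 (quasi-likelihood), limma 3.58.1 (voom), TMM factors, size factors from epithelium markers, no filter, a smooth muscle score as covariate, the replicate number as block, the deep libraries only and leaving out each library. The depth class as covariate, the smooth muscle score without FFA2 fl/fl replicate 3, and coding transcript length were added after seeing the data. TPM and shares are descriptions. Intervals cover counting error and library spread; reads had no molecular identifiers. Scripts were tested on simulated counts. The members and lists were chosen with earlier results of these data known. Genes were named by rule: all members, then pathway and regulator genes with an unadjusted p below 0.05, the most abundant gene of each list by TPM, and the 2 genes nearest in pattern to each of the 3 members that varied most. Acot1, Acot4, Them4, Acsl4, Fabp4, Mdh2, Lypla1, Acsf3 and Ppara were named outside this rule, after their values were seen, as were Utp14b and Gm26697, which overlap members.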

Additional observations from a re-analysis of the deposited data

Results flagged for a closer look

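Got2 in FFA2 fl/fl replicate 3 lay far below the other libraries of its genotype, at 113 normalized counts against a median of 282 in the other 3. Its gap to the nearest library was 0.858 of the group's whole range on the log2 scale, above Dixon's 95% critical value for 4 samples. With 20 groups of 4 examined, chance flags about 1 in 20. The same library was the lowest for Slc27a2, Acsl3 and Acsl5, held 6007654 counts and had the highest normalized counts of summed smooth muscle markers, Plin4 and Adipoq of the 8, and the part of these in the Got2 value was not tested.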

How the results depend on the processing

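Over 18 alternative settings the 10 members gave 180 fold changes, of which 0 passed an adjusted p below 0.05. Of these, 149 kept their direction and 31 turned. With size factors from epithelium markers the median over all tested genes itself moved, from -0.0067 to -0.086. The log2 fold changes that turned were Dbi at -0.0069 with limma; Slc27a2 at -0.015, Got2 at -0.080, Fabp2 at -0.052 and Dbi at -0.044 with size factors from epithelium markers; Cd36 at -0.20, Slc27a2 at -0.39, Slc27a4 at 0.022, Got2 at -0.097, Fabp1 at -0.21, Fabp2 at -0.042 and Dbi at -0.24 in the deep libraries alone. Further, they were Slc27a2 at -0.16 and Got2 at -0.22 without FFA2 fl/fl replicate 3 and with the smooth muscle score, and Fabp2 at -0.097, Dbi at -0.032 and Acsl5 at 0.055 with the depth class as a term. Leaving out each library in turn, Slc27a2 ranged from -0.13 to 0.19, Got2 from -0.19 to 0.15, Fabp1 from -0.033 to 0.24, Fabp2 from -0.077 to 0.17, Dbi from -0.057 to 0.12 and Acsl5 from -0.20 to 0.041. The count of 1 member higher at an unadjusted p below 0.05, Acsl3, became 0 with edgeR, limma, epithelium size factors and the deep libraries, and 0 or 1 when a library was left out, being lost without FFA2 fl/fl replicates 2, 3 or 4 or Adipoq-F2-KO replicate 1. The count lower was 2 in the deep libraries and 0 to 1 otherwise, and 2 members did not overlap in the deep libraries, beside 23.6% of all genes. Pathway genes at an unadjusted p below 0.05 were 1 higher and 1 lower with limma, 1 higher and 3 lower in the deep libraries, 0 to 2 in either direction when a library was left out, and 5 lower without FFA2 fl/fl replicate 3 and with the smooth muscle score. The shares of all genes called moved too, from 1.65% higher and 1.38% lower to 2.16% and 2.14% with limma, 2.56% and 2.85% in the deep libraries, 4.38% and 3.77% without FFA2 fl/fl replicate 3, and 2.91% and 2.3% with the smooth muscle score added. With epithelium size factors 0.363% were higher and 1.31% lower. Of the pathway genes 2 passed the adjusted p in the deep libraries. The cause of these changes was not tested, except that the deep libraries are 3 controls and 2 knockouts, with fewer samples. Over all genes the 6 calls became 77 in the deep libraries, 104 without FFA2 fl/fl replicate 3, 2 with edgeR and 1 with limma.

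The replicate numbers did not pair all the samples: deviations of same-numbered libraries correlated at 0.61, 0.42, 0.037 and -0.48 across 10225 genes. In all, 4 of 8 libraries correlated best with their own number, those of replicates 1 and 2 in both genotypes. The submitters' own sample names carry partly other numbers, so a shared number is only a place in the listing. With the replicate number as a block, 11 genes of the whole table were called, 0 members passed the adjusted p and 1 the unadjusted one, Acsl3, at 0.55 (DESeq2 unadjusted p = 0.0025, adjusted p = 0.747), where 1.61% of all genes were higher and 1.1% lower at the unadjusted threshold.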

Other observations

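For the 3 members that varied most over the 8 libraries, the nearest genes in pattern were sought among 10224 genes with a mean normalized count of at least 50, by the mean absolute difference of centred log2 values. Nearest to Cd36 were Olfr165 (0.12) and Selenop, the plasma selenium carrier (0.16). Nearest to Got2 were Gm15693 (0.086) and Tmem82 (0.089), and like Got2 both were lowest in FFA2 fl/fl replicate 3, at 41.8 and 94.1 normalized counts. Nearest to Acsl3 were Ivns1abp (0.18) and the mitotic spindle gene Nusap1 (0.20), both highest in Adipoq-F2-KO replicate 1, at 4501 and 90.0 normalized counts. These are descriptions over 8 libraries that share depth and tissue content.

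Of the 44 tested genes of the pathway, 7 separated by depth class, 2 higher and 5 lower in the shallow libraries, a share near the 13.9% of all genes that did. Among them Fabp4, the adipocyte fatty acid binding protein, had 94.0 to 243 normalized counts in the 3 shallow libraries and 0.77 to 12.6 in the 5 deep ones. Acot12 had 1128 to 1320 against 1629 to 2178 and the mitochondrial malate dehydrogenase Mdh2 had 4988 to 6415 against 6749 to 9201. Acsf3 had 228 to 271 against 307 to 387.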
